A study of Junonia coenia with 24 samples.

Results

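Hindwings and forewings of the buckeye butterfly Junonia coenia were compared at the 5th larval instar, the last before metamorphosis, by the openness of their chromatin. The comparison used 6 of 24 libraries: 3 of hindwings and 3 of forewings, numbered 1 to 3 in each wing and paired by that number. ATAC-seq treats nuclei with a hyperactive Tn5 transposase that cuts and tags open DNA, and the read count of an interval, or peak, measures how open it was. All libraries came from nuclei of whole wing tissue, left and right wings are both named in the design, and animals were kept at about 27 °C; no strain, allele or treatment is labelled. The other 18 libraries, 3 in each group, were of both wings at 3 later stages, labelled prepupa, 72 h after pupation and 6 days after pupation (day 7 in the titles). Those later groups are used below as averages over all 3 of a wing or under their labels.

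The wings of a caterpillar grow inside the body as imaginal discs, folded sheets of epithelium that form the adult wing after pupation. In butterflies the hindwing differs from the forewing by the Hox transcription factor Ultrabithorax, which is active in the hindwing and directs its identity; in Drosophila the same factor turns the hind appendage into a haltere. Transcription factors act through open regulatory DNA, and ATAC-seq measures which DNA is open without telling what is bound there. The files list intervals on contigs of a genome whose build the labels and headers do not name, and they name no genes, so no interval was placed in a gene and the labelled wing could not be checked against marker genes.

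Each wing had its own table of intervals, 488675 in the hindwing and 500558 in the forewing. Intervals were paired on the same contig where each covered at least 80% of the other, which gave 136423 pairs, 27.9% of hindwing and 27.3% of forewing intervals. These pairs held 51.5% to 55.6% of the reads of the hindwing libraries and 51.3% to 54.7% of those of the forewing libraries, and the remaining reads lay in intervals that entered no test. In all, 92582 hindwing intervals and 108988 forewing intervals overlapped nothing in the other table. Widths differed in 98.4% of the pairs, and each count was therefore divided by the width of its interval relative to the geometric mean of the pair. Total counts in peaks were 6977525, 9442306 and 8983481 in hindwing replicates 1, 2 and 3, and 7733254, 10036195 and 8525766 in the forewing replicates. After a filter on low counts 89723 peaks were tested, on 705 contigs, with a median level of 2.30 CPM (CPM are counts per 1e6 counts of the library, scaled by TMM composition factors and adjusted for width).

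A larval wing library resembled the other wing of its own number more than other libraries of its own wing. Over the tested peaks the Spearman correlations of the hindwing and forewing libraries numbered 1, 2 and 3 were 0.776, 0.827 and 0.822. Among libraries of 1 wing they were 0.753 to 0.790 in the hindwing and 0.746 to 0.791 in the forewing, and for different numbers across the wings 0.737 to 0.784. The most similar library was the same-numbered one of the other wing for 6 of 6 libraries. The deviations of same-numbered libraries from their wing's mean correlated at 0.37, 0.30 and 0.34, and all 6 correlations between different numbers were negative (-0.24 to -0.08). Deviations from a wing's own mean cancel out over its libraries, so the negative values follow in part from the positive ones and add no separate evidence. The labels do not say what a number marks, such as an animal, a litter or a day. These correlations are over peaks of the same libraries, so they describe these 6 samples.

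**Figure D1:**
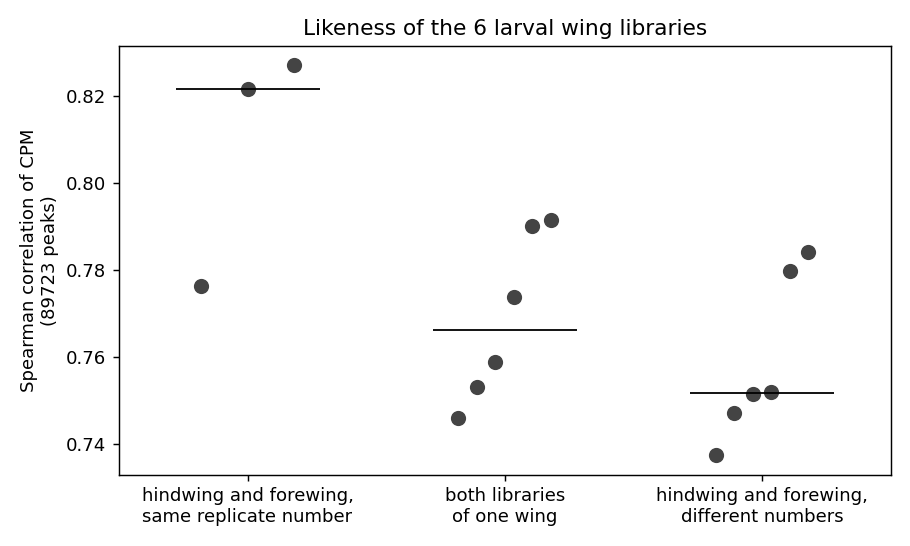
Spearman correlations of CPM between the 6 larval wing libraries, each point a pair of libraries and each line a median. The 3 same-numbered hindwing and forewing pairs (0.776 to 0.827) include the highest value in the plot, and libraries of 1 wing lie between 0.746 and 0.791.

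Over the tested peaks, the larval wing difference was small beside the differences between labelled stages. These peaks had to be matched between the wings, whereas no match was needed between stages, and intervals found in a single wing were left out. For group means (log2 of CPM plus 0.5) the hindwing and forewing of the 5th instar differed by a median of 0.21 in absolute log2 value, and 0.369% of peaks differed at least 2-fold. Hindwing groups labelled prepupa, 72 h and 6 d differed from the larval hindwing at least 2-fold at 10.8%, 21.5% and 27.9% of the same peaks. In the forewing these shares were 30.003% for the group labelled prepupa, 10.4% for 72 h and 22.1% for 6 d. Group means of the larval wings correlated at 0.900 (Spearman, over peaks), and the 6 stage pairs within a wing at 0.543 to 0.768. The group most like the larva was the one labelled prepupa in the hindwing and the one labelled 72 h in the forewing, so equal stage labels of the later groups did not stand in the same order in both wings.

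With the replicate number as a block, 524 of 89723 peaks differed between the wings at the 5th instar, 0.584% of those tested. Of these, 239 had higher openness in hindwings (0.266%) and 285 had it in forewings (0.318%), at an adjusted p under 0.05 in the quasi-likelihood test of edgeR with Benjamini-Hochberg adjustment over all tested peaks; 8096 peaks (9.02%) had an unadjusted p under 0.05. Peaks higher in the hindwing differed by a median of 1.87-fold, and those higher in the forewing by a median of 1.84-fold; 191 of the 524 reached 2-fold and 17 reached 4-fold. No tested peak had 0 reads in all libraries of either wing, so all folds are between measured levels. In whole wing tissue a site open in more cells and a site more open per cell cannot be told apart. The difference had the same direction in all 3 pairs at 522 of the 524 called peaks, against 29.8% of all tested peaks. The libraries of the wings did not overlap at 437 of the 524, against 10.7% of all tested peaks; both shares follow in part from the calls themselves.

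The calls depended on the pairing by number. Without the block the same test on the same 6 libraries called 3 peaks, 2 higher in the hindwing and 1 in the forewing, and 10 peaks when all 24 libraries were fitted without it. All 524 peaks kept their direction without the block, which follows largely from refitting the same 6 libraries. The common biological coefficient of variation was 16.3% with the block and 25.9% without it. Leaving out a pair of libraries also lowered the count, to 355 without replicate 1 of both wings, 211 without replicate 2 and 207 without replicate 3. Of the 524 peaks 263, 165 and 152 were still called in those fits, and all that were tested in them kept their direction. That adds no separate evidence, since 522 of the 524 already had 1 direction in all 3 pairs. Without replicate 1 the split was 209 hindwing-higher and 146 forewing-higher peaks, without replicate 2 it was 72 and 139, and without replicate 3 it was 100 and 107. With library totals in place of composition factors, 386 peaks were higher in the hindwing and 264 in the forewing, so the wing with more calls differed between the scalings. DESeq2 with the block called 176 peaks, 78 hindwing-higher and 98 forewing-higher, all among the 524.

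**Figure D2:**
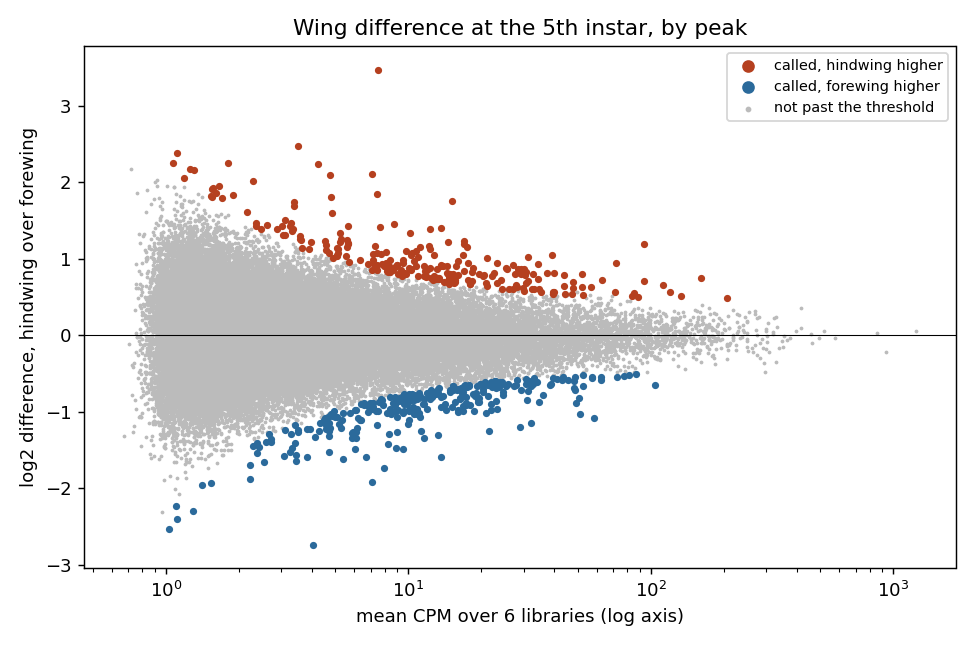
Each point is a tested peak, with the mean CPM over 6 libraries on a log axis and the log2 difference, hindwing over forewing. The 239 called hindwing-higher and 285 called forewing-higher peaks lie at the outer edges of the cloud, and none is among the 5 most open peaks, the highest point being the peak at contig 000025F with a log2 difference of 3.47.

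Most peaks that were measured well differed by less than 2-fold. The 95% interval of the wing difference lay within 2-fold in both directions at 93.4% of the 18906 peaks with a mean of at least 5 CPM, and at 52.1% of all tested peaks. These intervals rest mainly on a spread pooled over peaks, not on that of each peak alone. Below 2 CPM this held for 19.1% of 37939 peaks, with a median interval of ± 0.90 on the log2 scale. Calls made up 0.0527% of peaks below 2 CPM, 0.237% between 2 and 5 CPM, 1.28% between 5 and 10 CPM, 3.19% between 10 and 20 CPM, 3.80% between 20 and 50 CPM and 2.59% at 50 CPM or more. The median called difference was 4.003-fold below 2 CPM and 1.48-fold at 50 CPM or more. Of the 1902 peaks (2.12%) with a fitted difference of at least 2-fold, 191 were called; the median level of all 1902 was 1.46 CPM. By width, calls were 0.0379% of 15840 peaks under 200 bp and 1.74% of 1377 peaks of 1600 bp or more.

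**Figure D3:**
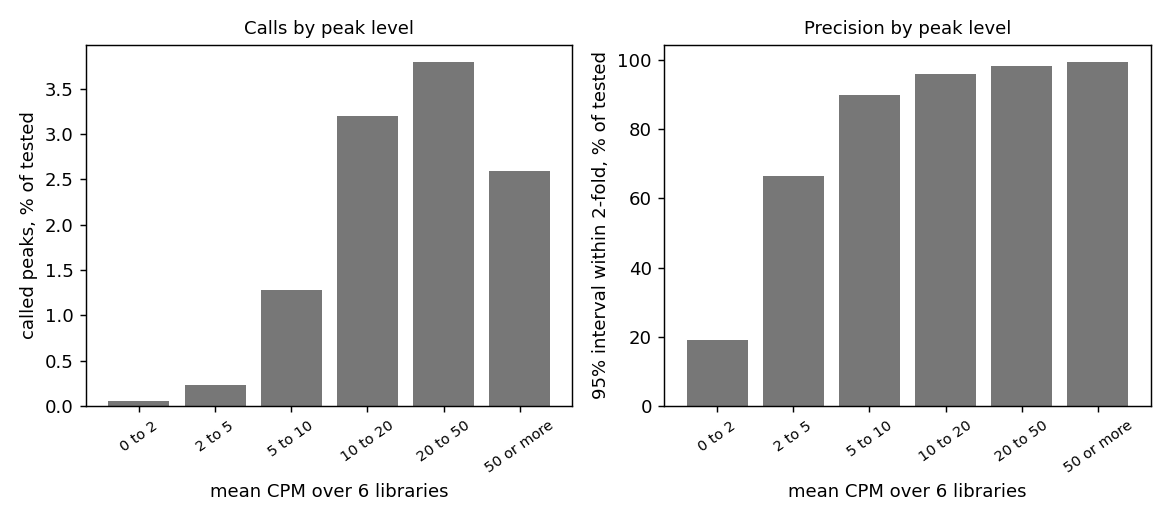
Bars give the share of tested peaks that were called (left) and the share whose 95% interval of the wing difference lay within 2-fold (right), by mean CPM over the 6 libraries. Calls reach 3.80% at 20 to 50 CPM, and the share within 2-fold goes from 19.1% below 2 CPM to 99.4% at 50 CPM or more.

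The peak with the largest wing difference lay on contig 000025F, at 975254 to 975658 in the hindwing table and 975305 to 975639 in the forewing table. It had 12.96, 13.4 and 14.9 CPM in hindwing replicates 1, 2 and 3, against 0.979, 1.47 and 1.204 CPM in the forewing replicates. Every hindwing library was thus far above every forewing library. The means were 13.8 ± 1.02 CPM in the hindwing and 1.22 ± 0.244 CPM in the forewing (SD, n = 3 each), an 11.1-fold difference (log2 3.47, standard error 0.27, 95% interval 2.93 to 4.01, edgeR adjusted p = 4.89e-17). Of the 20 named peaks it was the one called in all alternatives in which it was tested, 19 in number, with adjusted p of 3.57e-22 to 0.00776. The small p rests on a spread pooled over peaks; the 3 pairs alone cannot reach an exact two-sided p below 0.25. In the labelled later groups the peak was low in the hindwing (2.40 ± 0.745 CPM at prepupa, 3.07 ± 1.84 at 72 h and 2.25 ± 0.867 at 6 d; SD, n = 3 each), whereas in the forewing it had 1.68 ± 0.470, 1.08 ± 0.621 and 7.03 ± 5.54 CPM under those labels. The forewing libraries labelled 6 d were widely scattered.

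Of the 10 hindwing-higher peaks named for their fold, 6 were on contig 000025F. All 11 hindwing-higher calls of that contig lay between 951085 and 1099460, a stretch of 148 kb whose ends are the outermost of these calls. Of its 38 tested peaks, 26 were higher in the hindwing in all 3 pairs, the 11 calls among them, and none was called forewing-higher. Over all tested peaks 29.8% had the same direction in all 3 pairs, counting both directions. The other 7 calls of the contig, outside that stretch, were forewing-higher. The second-ranked peak by fold, at 969164 to 969410 (forewing interval 969181 to 969397), had 3.50, 7.21 and 7.11 CPM in the hindwing against 0.679, 1.09 and 1.43 CPM in the forewing, a 5.53-fold difference. A peak at 951085 to 951828 had 9.88, 13.6 and 11.3 CPM in hindwing libraries against 4.28, 1.94 and 3.71 CPM in forewing libraries. The peak at 1072957 to 1073604 had 7.60, 8.17 and 6.59 CPM in the hindwing and 1.997, 2.21 and 2.15 CPM in the forewing. Peaks at 1063396 to 1063897 and 1099099 to 1099460 were 3.35-fold and 3.21-fold higher in the hindwing. Groups did not overlap at any of the 6.

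The other 4 named hindwing-higher peaks lay on separate contigs. At contig 000041F, 296111 to 296601 (forewing interval 296092 to 296548), hindwing libraries had 10.8, 12.2 and 11.6 CPM and forewing libraries 2.24, 2.76 and 3.03 CPM. This difference of 4.30-fold (log2 2.10, standard error 0.24, edgeR adjusted p = 3.35e-09) also passed without the block (adjusted p = 0.0279, within 3.52e-11 to 0.370 over the alternatives). Contig 000393F, 275562 to 276262 (forewing interval 275582 to 276185), had the highest mean CPM of the 10, not corrected for length. It had 18.3, 26.4 and 25.8 CPM in the hindwing and 7.81, 6.30 and 6.81 CPM in the forewing (3.36-fold, edgeR adjusted p = 2.06e-10, and 0.0675 without the block). The 2 remaining peaks had lower levels. Contig 000082F, 1026386 to 1026698, had 4.98, 7.49 and 8.54 CPM in the hindwing and 1.36, 2.53 and 0.521 CPM in the forewing. Contig 000130F, 1122342 to 1122730, had 5.38, 7.12 and 10.3 CPM in the hindwing and 0.406, 1.53 and 3.76 CPM in the forewing, with the same order of the numbers in both wings.

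The 10 named forewing-higher peaks were on 10 contigs. The largest difference was at contig 000027F, 519692 to 519961 in the hindwing table and 519687 to 519980 in the forewing table. It had 0.556, 1.47 and 1.05 CPM in the hindwing libraries against 7.56, 5.80 and 7.93 CPM in the forewing libraries, 6.66-fold lower in the hindwing (log2 -2.74, standard error 0.33, 95% interval -3.39 to -2.08, edgeR adjusted p = 1.33e-08; 0.0302 without the block, within 1.06e-10 to 0.371 over the alternatives). No library of one wing reached the range of the other. The peak was most open in the forewing group labelled 72 h, at 19.6 ± 2.92 CPM (SD, n = 3). The hindwing groups labelled prepupa, 72 h and 6 d had 3.63 ± 1.45, 2.55 ± 0.929 and 1.66 ± 0.411 CPM, and the forewing groups labelled prepupa and 6 d had 1.61 ± 0.611 and 1.89 ± 0.709 CPM, so the forewing mean was not the higher one under every label.

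At contig 000223F, 578331 to 578689 in the hindwing table and to 578684 in the forewing table, hindwing libraries had 3.17, 3.66 and 2.10 CPM and forewing libraries 11.8, 12.2 and 9.56 CPM (log2 -1.91, standard error 0.24, edgeR adjusted p = 5.16e-08, and 0.0882 without the block). The most open of the 10, at contig 000072F (1551066 to 1551446, forewing interval 1551116 to 1551509), had 5.55, 8.71 and 6.12 CPM in the hindwing and 18.3, 19.7 and 23.3 CPM in the forewing. In the labelled later groups it was lower in both wings: those of the hindwing held 1.43 to 2.71 CPM and those of the forewing 1.38 to 2.06 CPM. Contig 000009F, 1608504 to 1608963, had 3.64, 2.86 and 4.57 CPM in hindwing libraries and 10.3, 12.2 and 14.0 CPM in forewing libraries. The named peaks on contigs 000008F, 000052F and 000057F had means of 1.72 to 1.91 CPM in the hindwing and 5.14 to 5.71 CPM in the forewing, and their wings did not overlap.

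Peaks at contigs 000007F, 000047F and 000173F show what the block does. At 000007F (3251818 to 3252116, forewing interval 3251811 to 3252133) the hindwing had 0.415, 3.94 and 3.48 CPM and the forewing 1.47, 13.9 and 9.01 CPM. The level of replicate 1 was low in both wings and the ranges overlapped, yet the log2 difference was similar in the 3 pairs, at -1.61, -1.79 and -1.35. At 000173F (132723 to 133019, forewing interval 132680 to 133033) it was replicate 3 that was low in both, with 2.62, 3.31 and 0.974 CPM in the hindwing and 11.5, 8.17 and 1.67 CPM in the forewing. At 000047F (2259385 to 2259815, forewing interval 2259394 to 2259812) the libraries had 3.28, 4.59 and 1.98 CPM in the hindwing and 10.6, 15.2 and 4.69 CPM in the forewing. They were highest in replicate 2 of both wings, and the ranges stood just apart. The log2 differences of the 3 pairs were -1.66, -1.70 and -1.20 at 000047F. At 000173F they were less alike, at -2.10, -1.28 and -0.722. These 3 peaks passed with the block (edgeR adjusted p = 0.000124, 0.000931 and 1.21e-05 for 000007F, 000173F and 000047F) and did not pass without it. That was not particular to them: without the block 17 of the 20 named peaks did not pass.

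**Figure D4:**
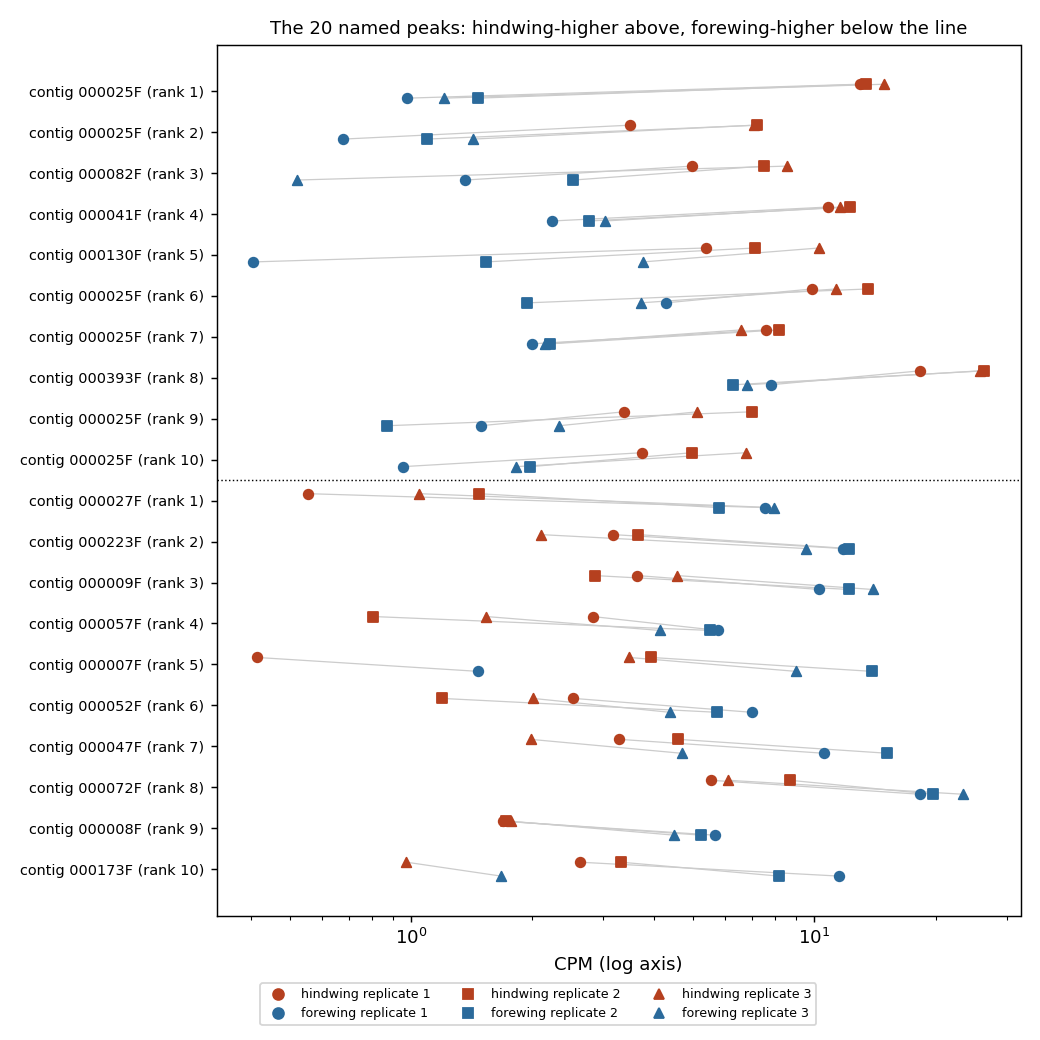
CPM on a log axis of the 20 named peaks in every larval library, hindwing red and above forewing blue within a row, with marker shapes for replicates 1 to 3 and grey lines joining same-numbered libraries. Hindwing and forewing markers stand apart in 10 of 10 hindwing-higher and 8 of 10 forewing-higher rows; ranks are by fold within a direction.

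The most open peaks of the larval wings did not pass the test, and their intervals of the wing difference were narrow under a spread pooled over peaks. The peak with the highest level, at contig 000148F, 71204 to 71667 in both tables, had 1244, 1217 and 1337 CPM in the hindwing and 1291, 1181 and 1175 CPM in the forewing, with a log2 difference of 0.06 (95% interval -0.17 to 0.29). The next at contig 000705F, 32487 to 33015, had 906, 652 and 1010.0 CPM in the hindwing and 1333, 958 and 738 CPM in the forewing, with an interval of -0.48 to 0.03. Contig 000072F, 1055131 to 1055553, had an interval of -0.21 to 0.27, contig 000195F, 804101 to 808772, one of -0.28 to 0.19, and contig 000014F, 1891723 to 1893987, one of -0.18 to 0.29. Each of these 5 intervals leaves out a 2-fold difference, but only under the pooled spread, which can be smaller than that of the peak itself. At 000705F the log2 differences of the 3 pairs were -0.557, -0.554 and 0.452, all outside its interval. Per length, in CPM per kb, they ranged from 122 for the 4672 bp interval of 000195F to 2729 at 000148F in the hindwing, and from 124 to 2621 for the same peaks in the forewing.

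Called peaks were spread over 180 of the 705 contigs with tested peaks, and 70 contigs had a single call. The most calls were on 000025F with 18 of 687 tested peaks, followed by 000009F (13 of 1281), 000024F (13 of 794) and 000130F (13 of 526). Both directions occurred on each of these contigs. Of called peaks that followed each other on a contig, 31 were within 10000 bp, and 28 of these differed in the same direction. The same share was not computed for all neighbouring tested peaks, so whether called neighbours share a direction more often than others was not tested. Contig 000130F held called neighbours with opposite directions. Between 1097553 and 1119834 the 5 called peaks were all higher in the forewing, among them 1108399 to 1108847 with 12.9 CPM in the hindwing and 30.2 CPM in the forewing, and the next called peak, at 1122342 to 1122730, was the named hindwing-higher one.

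Sums over neighbouring peaks gave differences of smaller size. Of 29338 windows of 10 kb with at least 2 matched peaks, 628 (2.14%) were called, 288 (0.982%) higher in the hindwing and 340 (1.16%) in the forewing, with a median of 1.46-fold; 39 reached 2-fold. Of 4540 windows of 100 kb with at least 5 matched peaks, 178 (3.92%) were called, 98 (2.16%) hindwing-higher and 80 (1.76%) forewing-higher, with a median of 1.23-fold. None of the 4540 differed 2-fold, the largest difference being 1.96-fold, and the 95% interval lay within 2-fold at 99.4% of them. Tests and intervals of windows rest on a spread pooled over windows, wholly at 10 kb and mainly at 100 kb. With library totals as the scale the splits were 411 hindwing-higher and 208 forewing-higher windows of 10 kb, and 224 and 73 of 100 kb; without the block edgeR called no window of either size, with 1385 windows of 10 kb and 173 of 100 kb at an unadjusted p under 0.05. Without replicate 1, 2 or 3 of both wings 308, 276 and 266 windows of 10 kb and 96, 139 and 163 of 100 kb were called.

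Of the 10 kb windows higher in the hindwing, the lowest p was on contig 000393F, 270001 to 280000, where the sums were 24.4, 30.3 and 30.4 CPM in the hindwing and 9.97, 8.41 and 11.3 CPM in the forewing; this window holds the named peak of that contig and 1 other. On contig 000197F, 770001 to 780000, 6 peaks summed to 132, 201 and 181 CPM in the hindwing and 79.1, 99.1 and 77.4 CPM in the forewing (log2 0.998, standard error 0.11, edgeR adjusted p = 4.94e-15). That p and standard error rest on a spread pooled over windows, not on the spread of this window's own 3 pairs. In this window, picked for its low p, 4 of the 6 peaks were higher in the hindwing in all 3 pairs. Of all tested peaks 29.8% had 1 direction in all pairs, counting both directions. The forewing-higher windows were led by contig 000024F, 370001 to 380000, with means of 30.6 ± 7.31 CPM in the hindwing and 56.2 ± 5.96 CPM in the forewing (SD, n = 3 each). At contig 000019F, 1920001 to 1930000, the means were 57.2 ± 7.04 CPM in the hindwing and 100.2 ± 12.5 CPM in the forewing. At contig 000130F, 1100001 to 1110000, they were 34.99 ± 0.700 CPM in the hindwing and 61.7 ± 9.45 CPM in the forewing.

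Among windows of 100 kb, contig 000003F, 2000001 to 2100000, had the lowest p for the hindwing, with 260.5, 373 and 370.3 CPM in the hindwing against 191, 249 and 265 CPM in the forewing over 42 matched peaks (log2 0.51, standard error 0.06, edgeR adjusted p = 9.34e-08). Only 1 of its 32 tested peaks was called by itself, and 11 were higher in the hindwing in all 3 pairs against 3 lower in all 3. In the window of 000025F from 1000001 to 1100000, 7 of 30 tested peaks were called and 19 were higher in the hindwing in all pairs. Both windows were picked for low p, and 29.8% of all tested peaks had 1 direction in all pairs, counting both directions. The lowest p for the forewing was on contig 000205F, 500001 to 600000, with 189, 165 and 195 CPM in the hindwing and 243, 252 and 232 CPM in the forewing (log2 -0.41, standard error 0.06, edgeR adjusted p = 1.91e-05). On contig 000046F, 300001 to 400000, the means were 194 ± 6.26 CPM in the hindwing and 251 ± 4.42 CPM in the forewing.

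The larval calls were compared with the 18 libraries of the later labelled groups, which had no part in them. For each peak the mean of the 3 hindwing groups was set against the mean of the 3 forewing groups, a difference that does not depend on which stage name a group of a wing carries. The mean difference had the sign of the larval difference at 401 of the 524 called peaks (76.5%), against 56.0% of all tested peaks. At a mean level of at least 5 CPM the shares were 76.3% of 426 called and 63.8% of all 18906 peaks. By direction it was 169 of 239 hindwing-higher peaks (70.7%) and 232 of 285 forewing-higher peaks (81.4%), against 56.0% of all tested peaks in each direction. Over all tested peaks of at least 5 CPM the later mean log2 difference had a median of -0.043, on the forewing side. The sizes were smaller: the median mean log2 difference in the later groups was 0.12 for the hindwing-higher and -0.26 for the forewing-higher peaks, where the larval medians were 0.90 and -0.88. Both sets of libraries use the same pairs of intervals, so an error in matching or in interval ends would enter both.

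No peak passed the test for a mean wing difference in those 18 libraries. The edgeR test called 0 of 89722 peaks (0%), with 5067 peaks (5.65%) at an unadjusted p under 0.05 and a lowest adjusted p of 0.0749. A test of whether the larval wing difference differed from that mean, chosen after the data were seen, also called 0 of 89723 peaks (0%), with 2979 (3.32%) at an unadjusted p under 0.05 and a lowest adjusted p of 0.196. Among the named peaks that value was reached by the peak of 000025F at 975254 to 975658, where the larval log2 difference was 3.47 and the later mean 0.12, and by the peak of 000041F, with 2.10 and 0.21. These tests do not show that any called difference was particular to the larva. Both were fitted without the replicate block. In the fit of all 24 libraries without it, the larval difference itself was called at 10 peaks. These counts of 0 can therefore not be set beside the 524 larval calls made with the block. Among the 20 named peaks, the later mean had the sign of the larval difference at 10 of 10 hindwing-higher and 9 of 10 forewing-higher peaks. At 5 of the hindwing-higher ones that sign turned without replicate 2 or without replicate 3 (to values of -0.0044 to -0.23), those of 975254 and 1063396 on 000025F and those on 000041F, 000130F and 000393F. The exception was 000072F, 1551066 to 1551446, with a larval log2 difference of -1.59 and a later mean of 0.27.

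**Figure D5:**
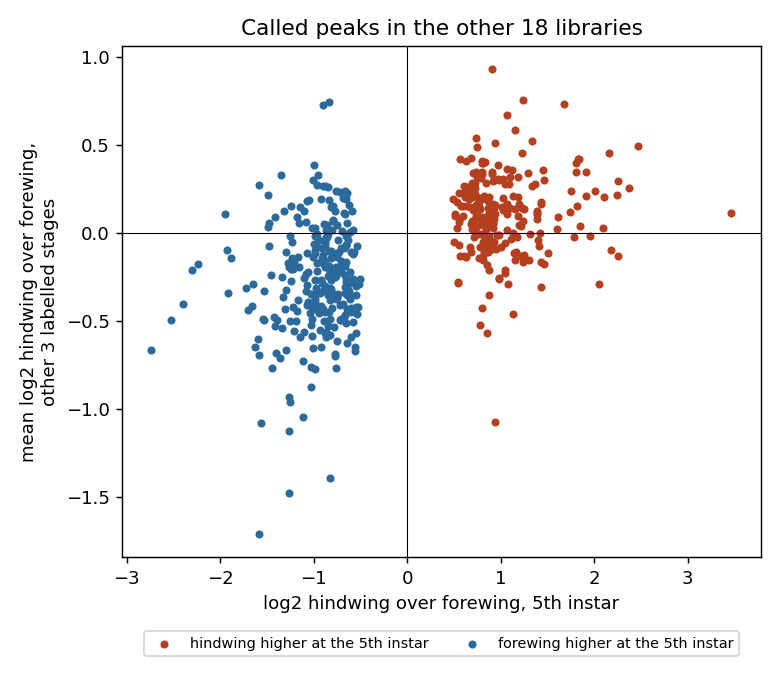
Each point is a peak called at the 5th instar, with its larval log2 difference, hindwing over forewing, on the horizontal axis and the mean log2 difference over the other 3 labelled stages on the vertical axis. The sign is shared at 401 of 524 points, and the vertical values are mostly closer to 0 (medians 0.12 and -0.26).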

How the data were processed

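Read counts per peak interval, not normalized, were deposited by the authors in a table for each wing. The submitters' processing notes name Bowtie2 and deepTools without versions or roles. Neither peak calling, genome build, read filters, duplicate handling nor any shift of read ends is described in the labels or headers. Interval starts were converted to positions counted from 1. The comparison, its lists and the rule below were chosen with earlier results of these data known.

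Counts were tested with edgeR 4.0.16 (limma 3.58.1, R 4.3.3, data.table version 1.17.8) on matched intervals. The settings were filterByExpr (minimum count 10, minimum total 15), TMM factors (0.964 to 1.08), the log width ratio as offset and the replicate number as a block. The block was set by the comparison, which pairs the wings by number. Deviations of same-numbered libraries correlated at 0.37, 0.30 and 0.34. With 2 residual degrees of freedom the test of peaks leaned on a prior of 90.4. The prior was 49.1 for windows of 100 kb and infinite for those of 10 kb. Whether replicates were separate animals is not labelled, and the p-values cover no more than the spread among these libraries, possibly a technical one. Named peaks are the 10 called peaks of largest fold per direction with at least 5 CPM in the higher wing and 1 direction in all pairs; windows are the 3 of lowest p per direction and size, and the most open peaks the 5 of highest CPM. The test was run on counts simulated from its own fit with the block, which cannot check the block or the pooled spread. It recovered 24% of 2-fold and 87% of 4-fold changes. DESeq2 1.42.0 was an alternative.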

Additional observations from a re-analysis of the deposited data

How the results depend on the processing

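All 524 larval calls kept their direction in every alternative in which they were tested, but their number moved with the settings. The alternatives refit the same libraries, so the kept direction follows largely from the calls themselves and adds no separate evidence. Without the replicate block, 3 peaks were called (2 hindwing-higher, 1 forewing-higher), and in the fit of all 24 libraries without the block 10 (5 and 5). Settings that raised the count were no division by interval width (888; 409 and 479), cyclic loess offsets (801; 402 and 399), at least 50 counts in 3 libraries (1013; 533 and 480) and a reciprocal overlap of 50% (2066; 1069 and 997). Lower counts came from no low-count filter (334; 161 and 173), DESeq2 (176; 78 and 98, with an adjusted p for 420 of the 524) and an overlap of 95% (149; 68 and 81). Library totals gave 386 hindwing-higher and 264 forewing-higher peaks, and limma-voom, chosen after seeing the data, 676 (315 and 361). At an overlap of 95%, 175 of the 524 were in the tested set and 147 were called. The pairs left out in turn gave 207 to 355 calls (72 to 209 hindwing-higher, 107 to 146 forewing-higher); single libraries left out without the block gave 1 call each (1 hindwing-higher, 0 forewing-higher).

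Windows of 10 kb numbered 0 without the block, 5712 with all intervals of each table and 266 to 308 without a pair; windows of 100 kb numbered 0, 1733 and 96 to 163, and 317 without the width term and 297 with library totals. The cause of these shifts was not tested, and tables called separately hold unequal sets of intervals. The mean difference over the later groups called 0 peaks in every alternative, the replicate block (lowest edgeR adjusted p 0.102) included. That block joined the wings by equal stage label and number. Unlike the main fit it therefore depended on stage labels, which did not stand in the same order in both wings. Leaving out replicate 2 or replicate 3 turned the sign of the later mean at 5 named hindwing-higher peaks. It ranged from -0.0044 (without replicate 3) to 0.21 at 000025F, 975254, from -0.024 (without replicate 3) to 0.41 at 000025F, 1063396, and, each lowest without replicate 2, from -0.031 to 0.31 at 000041F, 296111, from -0.23 to 0.35 at 000130F, 1122342, and from -0.13 to 0.40 at 000393F, 275562. Intervals were widest for weak peaks and cover the fitted spread only.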
